A study of Rattus norvegicus with 9 samples.

Results

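Circulating miRNAs enriched in white blood cells, some of them also made in other tissues, were followed in rat serum across rotenone exposure. The set comprised miR-150-5p, both arms of miR-142, both arms of miR-342, miR-181a-5p and miR-181b-5p. These 7 were taken by name from the 567 mature miRNAs of the deposited count matrix, and all 7 were present in it. Each of 3 groups held 3 libraries, and all animals were wild-type adult male Wistar rats. Control rats were compared with an early group (EPD) injected intraperitoneally with rotenone at 2.0 mg per kg daily for 10 days. A late group (LPD) received the same dose for more than 40 days, to a terminal stage. Rotenone is a pesticide that blocks complex I of the mitochondrial respiratory chain and is used to model Parkinson's disease. The sample labels word the treatment alike for all 9 libraries, controls included, and do not say what the control animals received. Nothing in the labels ties a library to a named animal, so p-values measure the spread between these libraries.

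Serum is free of cells, and its miRNAs come from blood cells, platelets, vessel wall and organs, carried in vesicles or bound to proteins. miR-150 is abundant in mature B and T lymphocytes and restrains the transcription factor Myb. miR-142 is made in nearly all haematopoietic lineages and both of its arms enter Argonaute complexes. miR-342 is expressed in lymphocytes and other blood cells but also outside the blood. miR-181a tunes antigen receptor signalling in developing T cells, and the miR-181 family is also abundant in brain. A lower serum level can come, among other ways, from fewer cells of a type or from less RNA released per cell, and these cannot be told apart here. The values below are relative to the other miRNAs of a library, so they do not measure the serum level itself.

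RefSeq mature sequences (build GRCr8) were found for 6 of the 7, all but miR-150-5p. They are shown 5′ to 3′ with the seed, bases 2 to 8, in capitals, because the seed decides which transcripts a miRNA can pair with and shows which members belong to one family.
miR-142-3p: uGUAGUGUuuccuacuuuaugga
miR-142-5p: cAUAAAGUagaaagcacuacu
miR-342-3p: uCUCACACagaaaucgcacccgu
miR-342-5p: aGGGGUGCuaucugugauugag
miR-181a-5p: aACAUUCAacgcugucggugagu
miR-181b-5p: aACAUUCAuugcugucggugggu
The 6 sequences carried 5 distinct seeds. miR-181a-5p and miR-181b-5p had the same seed and differed at 3 of 23 positions, A9U, C10U and A21G, counted from the 5′ end with miR-181a-5p as reference. Their seed was shared by miR-181c-5p and miR-181d-5p in the matrix. Among the 513 miRNAs of the matrix with a RefSeq sequence, 0 others had the seed of a miR-142 or miR-342 arm.

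The arms of miR-142 and miR-342 are cut from single hairpins, shown here with both mature arms in capitals because the arm ratios below rest on them.
Mir142: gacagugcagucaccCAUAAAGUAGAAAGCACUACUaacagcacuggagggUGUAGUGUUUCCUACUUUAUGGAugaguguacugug
Mir342: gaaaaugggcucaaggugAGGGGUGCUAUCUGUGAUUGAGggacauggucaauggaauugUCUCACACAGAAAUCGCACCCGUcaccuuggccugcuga
Mir142 lies at chr10:73055104-73055190 on the plus strand of GRCr8, within the span annotated for the protein-coding gene Tspoap1. Mir342 lies at chr6:133329655-133329753 on the plus strand, within the span of Evl. miR-181a-5p is annotated at 2 places, chr13:52037081-52037103 in Mir181a-1 and chr3:43025601-43025623 in Mir181a2, so its reads cannot be assigned to a locus. The chromosome 13 copy neighbours Ptprc, the gene of the pan-leukocyte antigen CD45. miR-181b-5p was annotated at chr13:52037263-52037285 in Mir181b1, and the hairpin Mir181b2 at chr3:43026666-43026753 holds the same mature letters, so its reads cannot be assigned to a locus either.

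Depth differed between the groups. Control libraries held 1108167 to 1539557 counts, EPD libraries 1136537 to 1668807 and LPD libraries 132609 to 305019. In LPD reads may have repeated the same molecules. An estimate from the number of miRNAs without counts gave 36.7, 49.1 and 12.3 reads per molecule, against 1.01 to 2.74 elsewhere. It assumes the mean profile of Control and EPD for LPD too, so miRNAs truly lost in LPD would raise it. Some counts were smaller than 1 such molecule, as the 10 of miR-181a-1-3p in LPD 2. By this estimate 1 molecule stood for 121, 221 and 81.2 CPM (counts scaled to a common library size) in LPD 1, 2 and 3. Low LPD values below are read against that estimate, and whether reads repeated molecules was not tested. In Control 2 the hepatocyte miRNA miR-122-5p took 44.3% of all counts, which lowers the raw share of every other miRNA there, and values with and without this library are given where it changes a result.

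Together the 7 miRNAs made up 4.09, 1.67 and 4.67% of the counts in the Control libraries, 4.54, 4.69 and 4.56% in EPD, and 3.80, 3.20 and 4.35% in LPD. The EPD libraries were nearly alike, and the low value was that of Control 2 (Wilson 95% interval 1.65 to 1.70%, counting error only). Group means were 3.48 ± 1.59% (SD, n = 3) in Control, 4.60 ± 0.0801% in EPD and 3.78 ± 0.577% in LPD, so the groups overlapped. With miR-122-5p and the red cell miRNA miR-16-5p left out of the total, the means were 4.81 ± 1.39%, 6.02 ± 0.570% and 5.57 ± 0.626%. Control 2 was still the lowest of the 9 libraries, at 3.31% against 5.04% in Control 1 and 6.06% in Control 3. Most of these reads, between 80.6 and 91.5% in each library, were miR-150-5p and the miR-142 arms.

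By mean CPM in Control the order was miR-150-5p, miR-142-5p, miR-142-3p, miR-342-3p, miR-181a-5p, miR-181b-5p and miR-342-5p. CPM were not divided by length, since a read covers a whole miRNA and the 6 sequences above differ by at most 2 bases. miR-150-5p stood above miR-142-5p in 7 of 9 libraries (not in Control 3 and LPD 3), and miR-142-3p above miR-342-3p in 7 of 9 (not in Control 1 and EPD 1). Neither pair of neighbours was therefore separated beyond the spread. The steps from miR-142-5p to miR-142-3p, from miR-342-3p to miR-181a-5p and from miR-181a-5p to miR-181b-5p kept their direction in 9 of 9 libraries.

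**Figure D1:**
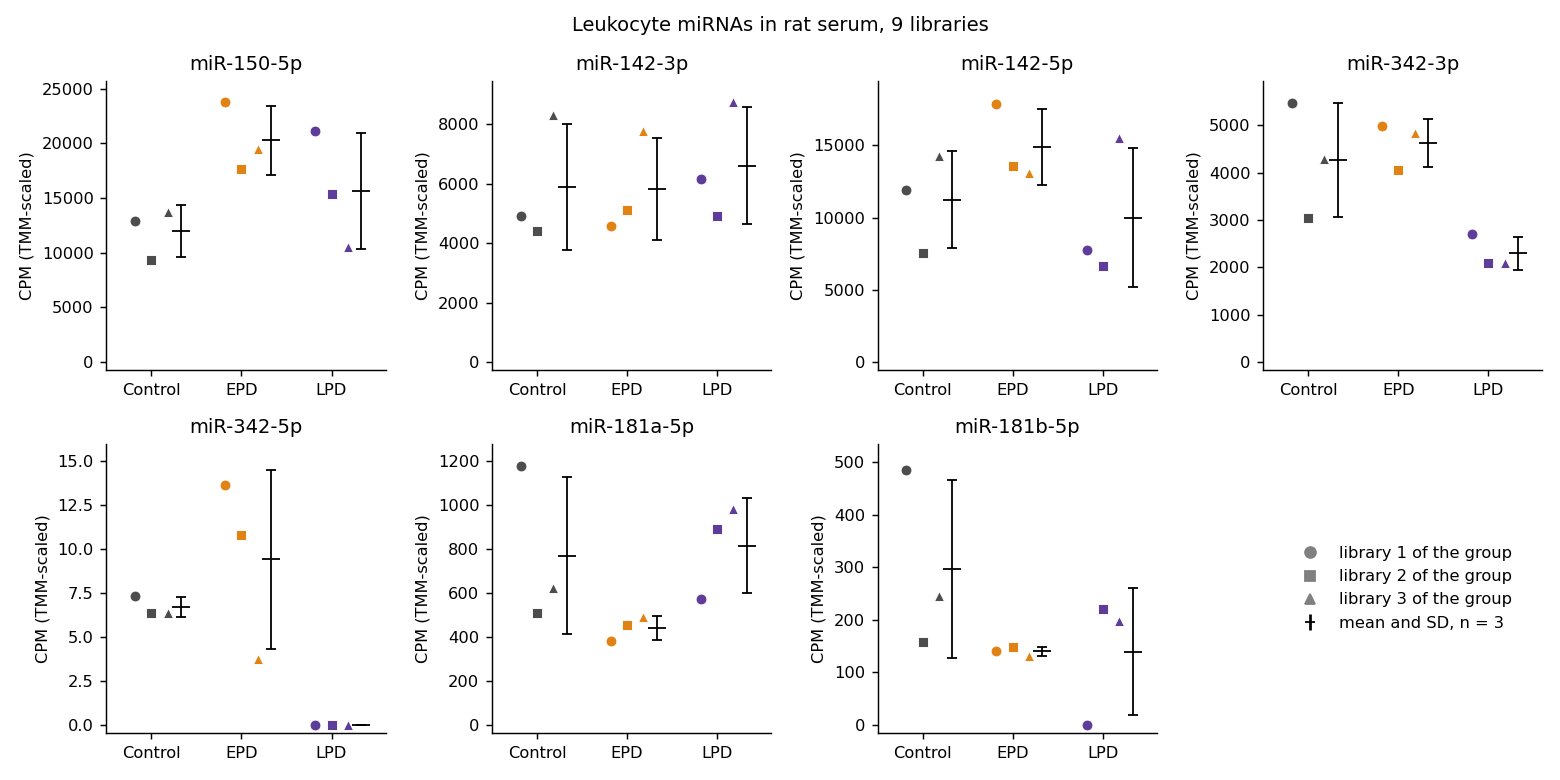
TMM-scaled CPM of each of the 7 miRNAs (linear axes, each panel with its own scale) in the 9 libraries; markers are libraries 1 to 3 of Control, EPD and LPD, and bars are the mean and SD (n = 3). miR-342-3p is low in all 3 LPD libraries (2095 to 2708 CPM), miR-150-5p is high in all 3 EPD libraries (17640 to 23762 CPM), and miR-342-5p is at 0 in LPD.

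After 10 days of rotenone, no member passed the test. The nearest were the lymphocyte miRNA miR-150-5p, with higher values in EPD, and miR-181a-5p, with lower values. miR-150-5p had 12895, 9316 and 13770 CPM in the Control libraries and 23762, 17640 and 19481 CPM in EPD. Every EPD library lay above every control, and on the raw scale it ranked 12th or 13th among miRNAs in EPD against 17th to 24th in Control. Its log2 fold change was 0.76 (SE 0.31), unadjusted p = 0.0348 and adjusted p = 0.995 (edgeR quasi-likelihood test, Benjamini-Hochberg over 294 miRNAs). The difference stayed between 0.69 and 0.90 in 18 alternatives, and its adjusted p between 0.338 and 0.999, so it was stable in size but not called in any of them. Of all 294 miRNAs tested, 11 had an unadjusted p under 0.05 (3.74%), and 0 (0.0%) were called.

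miR-181a-5p had 1176, 508 and 622 CPM in Control and 380, 452 and 488 CPM in EPD. All EPD values lay below all controls, but the gap to Control 2 was small and Control 1 was far above the rest. The log2 fold change was -0.81 (SE 0.42, adjusted p = 0.995 with edgeR), and -0.31 without Control 1. miR-181b-5p, of the same seed, had 485, 158 and 246 CPM in Control and 140, 149 and 131 CPM in EPD. These groups did not overlap either, and the 3 EPD values were close together. The log2 fold change was -1.08 (SE 1.20, adjusted p = 0.995 with edgeR), and -0.49 without Control 1.

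The miR-142 arms and miR-342-3p overlapped between EPD and Control. miR-142-5p had 11921, 7582 and 14231 CPM in Control and 17885, 13589 and 13094 CPM in EPD, a log2 fold change of 0.40 (SE 0.38). miR-142-3p had 4914, 4419 and 8322 CPM against 4587, 5129 and 7791 CPM, with -0.01 (SE 0.35) that turned positive in 10 of 18 alternatives, among them 1 of 3 other scalings (upper quartile). miR-342-3p had 5470, 3053 and 4285 CPM against 4989, 4049 and 4833 CPM, with 0.12 (SE 0.28). For all 3 the adjusted p was 0.995 with edgeR. Over the 6 tested members, 3 changes were positive and 3 negative, with a median of 0.05 against -0.05 over all 294. Groups did not overlap for 3 of the 6 (miR-150-5p higher, miR-181a-5p and miR-181b-5p lower), where 12.9% of all tested miRNAs did not overlap, 4.76% higher and 8.16% lower.

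In the late group miR-342-3p fell. It had 2708, 2100 and 2095 CPM in the LPD libraries, against 5470, 3053 and 4285 CPM in Control and 4989, 4049 and 4833 CPM in EPD. All LPD values lay below all other libraries. Means were 2301 ± 352 CPM in LPD, 4269 ± 1209 CPM in Control and 4624 ± 504 CPM in EPD (SD, n = 3 each). The log2 fold change was -0.89 against Control (SE 0.28, adjusted p = 0.0308) and -1.01 against EPD (SE 0.28, adjusted p = 0.0197), both from edgeR's quasi-likelihood test. It was 1 of 6 tested members called in either comparison, where 37.1% of all tested miRNAs were called against Control and 36.7% against EPD (32.7% lower in each). Among the 124 miRNAs with counts in all 9 libraries, 21.8% were called lower against Control and 23.4% against EPD, so a call of this kind was common.

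How far it fell depended on the scaling, and the call did not hold widely. LPD counts of 818, 467 and 318 stood for an estimated 22.3, 9.52 and 25.8 molecules. With upper-quartile scaling the change was -0.29 against Control (adjusted p = 0.465) and -0.49 against EPD (adjusted p = 0.200). That scaling moved the median of the 124 miRNAs from -0.21 to 0.30 against Control and from -0.09 to 0.39 against EPD. Relative to this median, miR-342-3p stood at -0.77 to -0.59 against Control and -0.92 to -0.87 against EPD over 4 scalings. A scaling shifts all miRNAs of a fit nearly alike, so this likeness is built in and does not test the fall. Over all settings the relative value ran from -0.94 (without Control 2) to -0.42 (limma-voom) against Control. Against EPD it ran from -1.01 (without EPD 2) to -0.76 (without LPD 3). The call against Control was kept in 4 of 18 alternatives (the replicate number as a block, and without Control 2, EPD 2 or EPD 3). It was lost without Control 1 (-0.71, adjusted p = 0.0887), Control 3 (0.0592), EPD 1 (0.0821), LPD 1 (0.101), LPD 2 (0.0996) or LPD 3 (-0.61, adjusted p = 0.116). Against EPD it was kept in 9 of 18 and lost without EPD 1 (0.0752), LPD 1 (0.0554), LPD 2 (0.0529) or LPD 3 (0.0541). On counts divided by the estimated reads per molecule it was -0.81 against Control (adjusted p = 0.153) and the call against EPD was also lost (adjusted p = 0.0852). The sign was negative under each of the 18 alternatives in both comparisons.

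**Figure D2:**
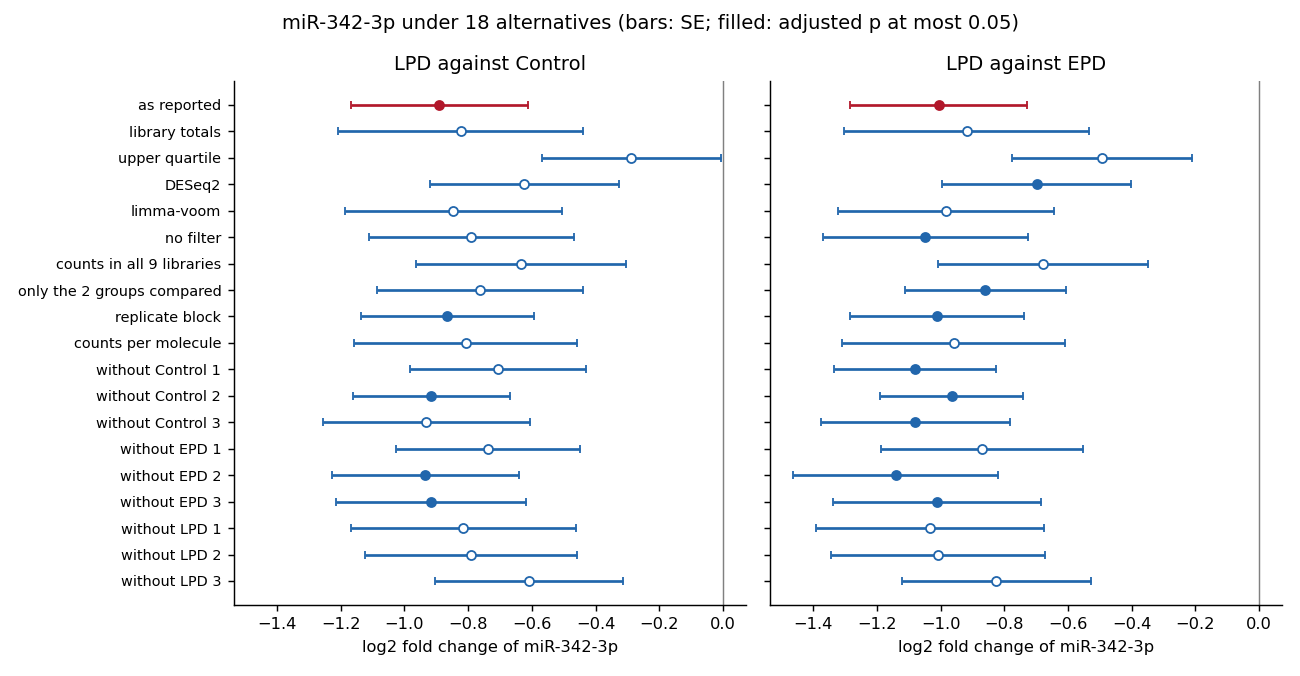
Log2 fold change of miR-342-3p (horizontal axis, bars are SE) in LPD against Control and in LPD against EPD, as reported (red) and under 18 alternatives (blue); filled points have an adjusted p of at most 0.05. All points lie below 0, from -0.93 to -0.29 against Control and from -1.14 to -0.49 against EPD, and upper-quartile scaling gives the smallest change in both.

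No other member passed in LPD. miR-150-5p had 21133, 15369 and 10490 CPM, so LPD 1 lay in the EPD range and LPD 3 in the Control range. Its log2 fold change was 0.39 against Control (SE 0.30, adjusted p = 0.365) and -0.37 against EPD (SE 0.30, adjusted p = 0.388) with edgeR. Without LPD 3 the value against Control was 0.82 (adjusted p = 0.0411), and with upper-quartile scaling 0.99 (adjusted p = 0.0470), where the value against EPD was 0.16. The counts of 6384, 3418 and 1592 stood for an estimated 174, 69.7 and 129 molecules, the most of any member in LPD 1 and LPD 2.

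miR-142-3p had 6147, 4910 and 8757 CPM in LPD, within the range of both other groups save for LPD 3, which was the highest of the 9. The log2 fold changes were 0.17 against Control and 0.18 against EPD (SE 0.35 each, adjusted p = 0.728 and 0.736 with edgeR). miR-142-5p had 7789, 6673 and 15491 CPM, with LPD 3 again apart from the other 2. It stood at -0.17 against Control (SE 0.38, adjusted p = 0.735), turning positive with upper-quartile scaling (0.36) and DESeq2 (0.049), and at -0.57 against EPD (SE 0.38, adjusted p = 0.279).

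miR-181a-5p had 569, 890 and 982 CPM in LPD, all above the 380 to 488 CPM of EPD and within the Control range. Its log2 fold change against EPD was 0.89 (SE 0.43, adjusted p = 0.145 with edgeR). It passed in 3 of 18 alternatives, with DESeq2 (1.18, adjusted p = 0.0188), upper-quartile scaling (1.37, adjusted p = 0.0257) and when only the 124 miRNAs counted in every library were fitted (1.23, adjusted p = 0.0445). Against Control it was 0.08 (SE 0.42, adjusted p = 0.886). The LPD counts of 172, 198 and 149 stood for an estimated 4.69, 4.04 and 12.1 molecules. miR-181b-5p had no count in LPD 1 and 220 and 198 CPM in LPD 2 and LPD 3, which stood for an estimated 0.999 and 2.43 molecules. Its log2 fold changes of -1.10 against Control (SE 1.22) and -0.02 against EPD (SE 1.21) therefore have little behind them, and the second was positive in 9 of 17 alternatives.

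**Figure D3:**
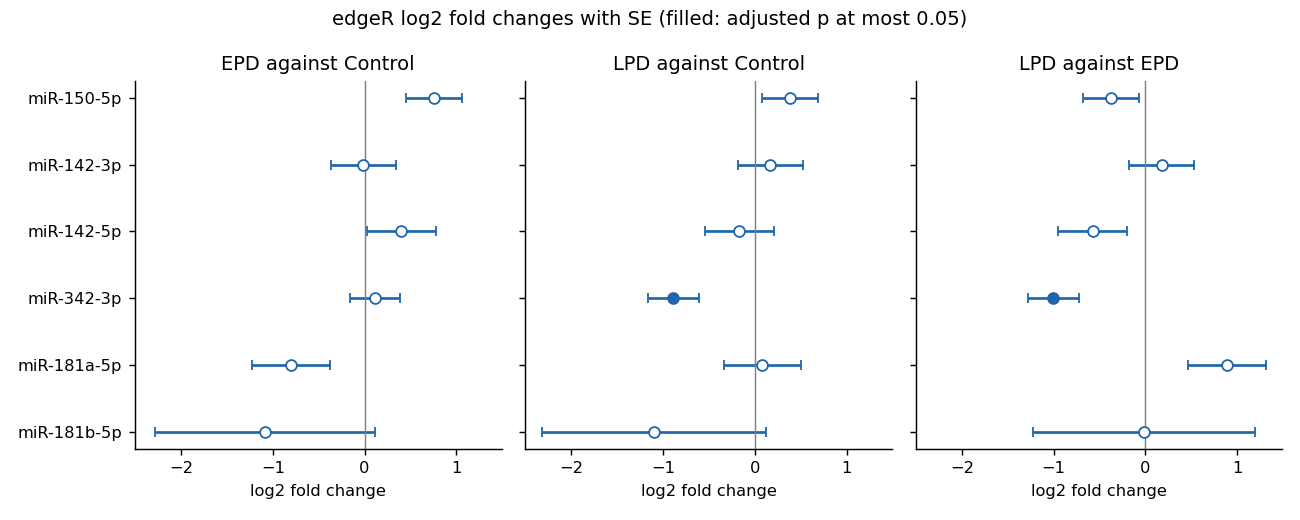
Log2 fold changes (points) with SE (bars) of the 6 tested miRNAs in EPD against Control, LPD against Control and LPD against EPD; filled points have an adjusted p of at most 0.05. Only miR-342-3p is filled, at -0.89 and -1.01 in the comparisons with LPD, and miR-181b-5p has the widest bars (SE 1.20 to 1.22).

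Against Control 3 of the 6 tested members were positive in LPD and 3 negative, with a median of -0.05, where the median was -1.04 over all 294 miRNAs and -0.21 over the 124 with counts in every library. Against EPD 2 were positive and 4 negative, with a median of -0.19 beside -0.92 and -0.09. LPD did not overlap Control for 1 of the 6 (miR-342-3p, lower; 48.3% of all tested, 41.8% lower) and did not overlap EPD for 2 of the 6 (miR-342-3p lower and miR-181a-5p higher; 52.4% of all tested, 45.6% lower and 6.8% higher).

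The minor arm miR-342-5p was near the detection limit and did not pass the filter on low counts. It had 9, 5 and 11 counts in Control, 20, 14 and 6 in EPD, and 0 in each LPD library. That is 6.35 to 7.32 CPM in Control and 3.76 to 13.7 CPM in EPD, which overlapped. A count of 0 allows up to 3 counts, or 9.93, 13.5 and 19.8 CPM in LPD 1, 2 and 3, limits that lie above every Control value. At the pooled ratio of both arms in Control and EPD, 1.44, 0.825 and 0.562 counts of miR-342-5p would stand beside the miR-342-3p counts of the LPD libraries. Alternatives that kept it did so only through its Control and EPD counts, so a lower value in LPD was fixed in advance. Its p-values in LPD are therefore not given. The fitted fold is not given either, since the LPD libraries were all at 0, and the counts there take no account of the reads per molecule. In EPD against Control its adjusted p with edgeR was 0.751 to 0.999 in 9 alternatives.

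Ratios of 2 miRNAs within a library do not depend on scaling between libraries. The ratio of miR-142-5p to miR-142-3p was 2.43, 1.72 and 1.71 in Control, 3.90, 2.65 and 1.68 in EPD and 1.27, 1.36 and 1.77 in LPD. The 5p arm was the more abundant in all 9 libraries, and the groups overlapped. The mean log2 ratio was 0.94 ± 0.29, 1.37 ± 0.61 and 0.54 ± 0.25 (SD, n = 3). Exact two-sided permutation tests gave p = 0.4 between EPD and Control, 0.3 between LPD and Control and 0.2 between LPD and EPD (adjusted over 9 tests, 0.45, 0.386 and 0.386). With 3 libraries against 3 the smallest p possible is 0.1. The ratio of miR-181b-5p to miR-181a-5p was 0.412, 0.312 and 0.395 in Control, 0.369, 0.329 and 0.267 in EPD, and 0, 0.247 and 0.201 in LPD. All LPD values lay below all others (exact p = 0.1 against either group, adjusted 0.386), but the miR-181b-5p reads there stood, by the estimate, for under 3 molecules in each library. EPD and Control were not told apart (exact p = 0.3, adjusted 0.386). For miR-342-5p to miR-342-3p the exact p was 0.8, 0.3 and 0.3, and the LPD values are set by the prior of 0.5 counts.

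Among the 15 pairs that can be formed from the 6 tested members, 8 ratios did not overlap between EPD and Control, and 5 of the 10 pairs without miR-181b-5p, which had no count in LPD 1. Of all pairs of miRNAs with counts in every library, the like of these 10, 14.9% did not overlap. All 8 had miR-150-5p, miR-142-5p or miR-342-3p on one side, and in 6 of them miR-181a-5p or miR-181b-5p stood on the other, so these 15 ratios are not independent. Reads of miR-150-5p per read of miR-181a-5p were 11.0, 18.3 and 22.1 in Control and 62.6, 39.0 and 39.9 in EPD, and 37.1, 17.3 and 10.7 in LPD. miR-342-3p per miR-181a-5p was 4.65, 6.01 and 6.88 in Control, 13.1, 8.96 and 9.90 in EPD and 4.76, 2.36 and 2.13 in LPD. Both were highest in the 3 EPD libraries. In LPD against Control 3 of the 15 ratios and 2 of the 10 did not overlap (40.4% of all pairs), and in LPD against EPD 7 of the 15 and 6 of the 10 did not (47.9% of all pairs).

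A single ratio, miR-150-5p to miR-342-3p, separated all 3 groups, and it is described because of its values. It was 2.36, 3.05 and 3.21 in Control, 4.76, 4.36 and 4.03 in EPD and 7.80, 7.32 and 5.01 in LPD. Every EPD library lay above every control and every LPD library above every EPD library. The mean log2 ratio was 1.51 ± 0.24, 2.13 ± 0.12 and 2.72 ± 0.35 (SD, n = 3), so it was higher by 0.62 in EPD than in Control and by 0.59 in LPD than in EPD. Of 7626 pairs of miRNAs with counts in all libraries, 355 (4.66%) had all 3 groups apart and 174 (2.28%) had them in this order or its reverse. In EPD the step went with higher miR-150-5p, and in LPD with lower miR-342-3p, as the CPM values above show.

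**Figure D4:**
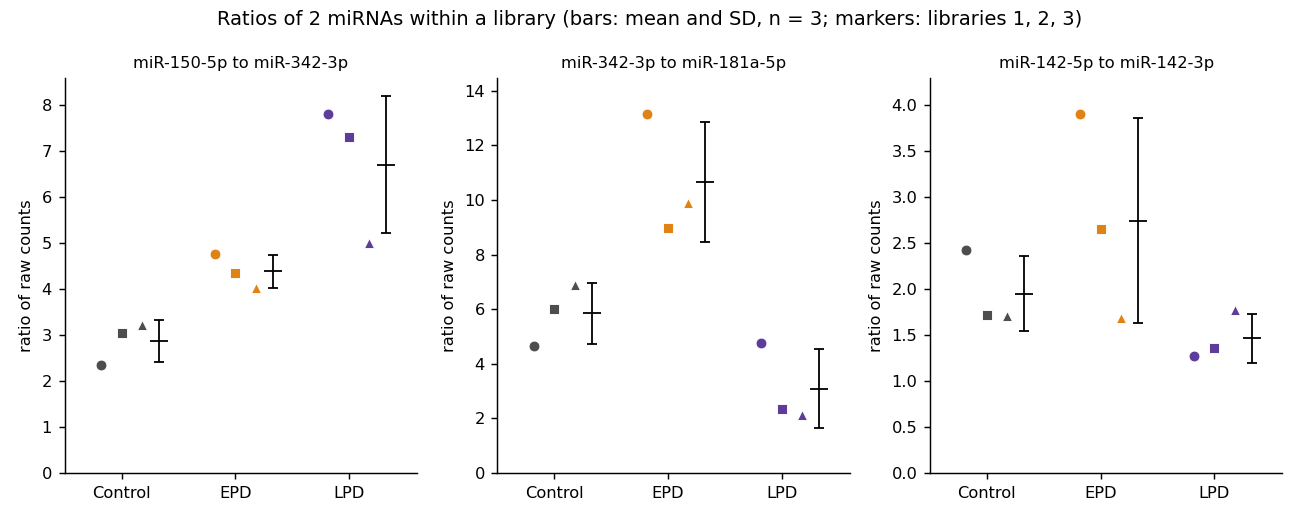
Ratios of raw counts within each library for miR-150-5p to miR-342-3p, miR-342-3p to miR-181a-5p and miR-142-5p to miR-142-3p (linear axes from 0; markers are libraries 1 to 3, bars the mean and SD, n = 3). The first separates all 3 groups, with 2.36 to 3.21 in Control, 4.03 to 4.76 in EPD and 5.01 to 7.80 in LPD; the second is highest in EPD, and the third overlaps.

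The members did not follow one common pattern. Over the 9 libraries Pearson's r of log2 CPM between 2 members with counts in every library ran from -0.54 (miR-150-5p with miR-181a-5p) to 0.54 (miR-142-5p with miR-342-3p), and the arms of miR-142 had 0.38. Over the 6 Control and EPD libraries miR-150-5p and miR-142-5p had 0.89. These are descriptions over libraries that share group and depth. The closest 2 of 119 other miRNAs were then taken for each member over the 9 libraries, so high values are favoured. For miR-342-3p they were miR-205, an epithelial miRNA (r = 0.99), and miR-140-3p of cartilage (0.94), both outside the blood cell lists. Over the 6 Control and EPD libraries these had 0.95 and 0.63. miR-150-5p was most like miR-25-3p (0.71) and miR-93-5p (0.70), neighbours in one cluster. miR-142-5p was most like miR-141-3p (0.85) and miR-7a-5p (0.78), miR-142-3p like miR-206-3p (0.70) and miR-1b (0.64), and miR-181a-5p like miR-1b (0.84) and miR-214-3p (0.81). Over the Control and EPD libraries alone, r for the neighbours of these other members ran from 0.49 (miR-142-3p with miR-1b) to 0.90 (miR-181a-5p with miR-214-3p).

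Other arms and family members were scarce. Of 9 relatives (miR-150-3p, the 3p arms of miR-181a and miR-181b, and both arms of miR-181c and miR-181d), 6 could be tested. None was called in EPD, and 2 of the 6 were called lower in LPD against either group, miR-181b-1-3p and miR-181c-5p, a share near the 32.7% of all tested miRNAs called lower. For miR-181b-1-3p the Control libraries had 60.2, 21.7 and 62.9 CPM, the EPD libraries 37.6, 28.5 and 35.8 CPM and the LPD libraries 0. miR-181c-5p had 13.0, 52.3 and 31.2 CPM in Control, 36.9, 19.2 and 59.0 CPM in EPD and 0 in LPD. All these values lie below the 81.2 to 221 CPM that 1 molecule stands for in LPD by the estimate. The estimate was itself made from the miRNAs at 0, these included, so it is no separate evidence on their zeros. No fold is given, since the LPD libraries were all at 0 and the filter kept both miRNAs only through Control and EPD. miR-150-3p, the passenger arm of miR-150, had 48 to 171 counts in Control, 97 to 202 in EPD and 17 to 69 in LPD, and was not called (log2 fold change 0.30 in EPD and 1.34 in LPD against Control, SE 0.68 and 0.69).

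Of 8 other leukocyte miRNAs tested, 7 had positive changes in EPD against Control and 0 were called. In LPD against Control 4 were positive, 1 was called higher and 3 lower, where 37.1% of all tested miRNAs were called. Against EPD 5 were positive in LPD and 3 were called lower, where 36.7% of all were called. miR-223-3p of neutrophils and monocytes rose in LPD against Control (log2 fold change 1.17, SE 0.39, adjusted p = 0.0418 with edgeR). Its change in LPD against EPD was 0.34 (SE 0.39, adjusted p = 0.547 with edgeR). miR-146a-5p, which restrains NF-kB signalling, fell from 26209, 44867 and 28444 CPM in Control to 14565, 12500 and 17889 CPM in LPD (-1.15, SE 0.32, adjusted p = 0.0200). Its relative miR-146b-5p fell from 1298, 1476 and 1203 to 682, 688 and 830 CPM (-0.85, SE 0.28, adjusted p = 0.0385). The third lower one, miR-132-3p, ranged from 6.92 to 13.8 CPM among controls, under the estimated level of 1 molecule in LPD. There it was at 0 together with miR-146a-3p and miR-146b-3p, and these zeros are part of that estimate. The filter kept miR-132-3p only through its Control and EPD counts. The lymphocyte activation miRNA miR-155-5p was not called (0.03 in EPD and 0.40 in LPD against Control, SE 0.40 and 0.41). The list median was 0.26 in EPD and 0.13 in LPD against Control, beside -0.05 and -1.04 over all 294.

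Markers of other sources were summed by library, without a test of the sums. The 7 erythrocyte miRNAs summed to 84964 to 169736 CPM in Control, 153622 to 395431 CPM in EPD and 236420 to 373372 CPM in LPD, with 6 of 7 positive in LPD against Control and 1 called. The 9 platelet miRNAs summed to 107327 to 121084, 91936 to 170296 and 50992 to 64706 CPM, with 7 of 9 negative in LPD against Control, 2 called lower and 1 higher. Of all 294 miRNAs tested in that comparison 90 were positive, 37.1% were called and 32.7% were called lower. None of the 16 erythrocyte and platelet miRNAs was at 0 in all LPD libraries. The erythrocyte sums of LPD lay above all Control sums and the platelet sums of LPD below those of both other groups, whereas EPD overlapped Control in both. Few members carried these sums. miR-16-5p held most erythrocyte counts and was not called (1.14 in LPD against Control, adjusted p = 0.0660 with edgeR). miR-191a-5p and miR-199a-3p, the most abundant platelet entries in Control, were the 2 called lower. miR-126a-5p was the 1 called higher (1.52, adjusted p = 0.00658 with edgeR), and miR-126a-3p was also positive (0.50). The 5 liver miRNAs measured summed to 29537 to 697009 CPM in Control, 21035 to 56392 CPM in EPD and 21530 to 46999 CPM in LPD (miR-802-5p at 0 there). The 6 muscle miRNAs summed to 1435 to 7720, 339 to 4973 and 715 to 10813 CPM (miR-133b-3p and miR-208b-3p at 0 in LPD), and both lists overlapped between all groups. The part of these sources, of depth and of the reads per molecule in the lower miR-342-3p of LPD and the higher miR-150-5p of EPD was not tested.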

How the data were processed

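The values deposited by the authors are raw read counts of mature miRNAs in 9 serum libraries, given singly and as a matrix (0 values differed). Per the labels' protocols, RNA came from a miRNeasy serum kit and libraries from the QIAseq miRNA kit. Build mRatBN7.2 is named in the submitters' processing notes. The aligner, the counter and any use of molecular identifiers were, in the sources used here, not given. Intervals and floors therefore cover only counting error. Groups and replicate numbers came from the titles.

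edgeR 4.0.16 (R 4.3.3) filterByExpr (minimum count 10, minimum total 15, by group) kept 294 of 567 miRNAs, 6 of them members. TMM factors scaled the libraries, and CPM were computed with them. One robust quasi-likelihood fit over the 3 groups, without covariates, tested each pair of groups, and p-values were Benjamini-Hochberg adjusted (threshold 0.05). SE came from the F statistic. The fit was tested on simulated data with the same spread setting in all libraries and no repeated reads. That test therefore does not cover the reads per molecule estimated for LPD. Libraries of one group differed beyond the sampling noise of reads (lowest chi-square over degrees of freedom, 30.7, LPD 1 with LPD 2). That lowest value is below the estimated 36.7 and 49.1 reads per molecule of these libraries. For this pair it therefore does not show a difference beyond the sampling of molecules. The molecule estimate took how many miRNAs had 0 counts and assumed the mean profile of Control and EPD for LPD too, so it is approximate. Ratios used exact two-sided permutation tests.

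Alternatives were 3 other scalings or tools (library totals, upper quartile, DESeq2 1.42.0), limma-voom (limma 3.58.1), 2 other filters, fits of 2 groups, a replicate block, counts per molecule and each library left out. Named were all members, marker lists by counts with up to 3 called examples, miR-223-3p, and the 2 miRNAs closest in log2 CPM to each member with counts in all 9 libraries. miR-155-5p and miR-150-3p were named after their values were seen. Members and lists were chosen with earlier results of these data known. The sequence table held 513 of the 567 miRNAs.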

Additional observations from a re-analysis of the deposited data

How the results depend on the processing

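In LPD against Control 109 miRNAs were called (13 higher, 96 lower), and 38 with only miRNAs counted in all 9 libraries, 52 with only the 2 groups compared and 31 on counts per molecule. Without single libraries the count ran from 93 to 140. In LPD against EPD 108 were called, and 35, 67 and 29 under the same 3 settings (90 to 134 without single libraries). In EPD against Control 0 were called (11 at an unadjusted p under 0.05), and 1 with DESeq2 and 1 with counts in all 9 libraries (0 to 1 without single libraries). Higher calls made up 13 of 109 in LPD against Control with TMM and 25 of 107 with upper-quartile scaling, and 12 of 108 and 22 of 102 against EPD. The share of the 7 members was 6.02% in EPD and 5.57% in LPD without miR-122-5p and miR-16-5p in the total.

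Values near 0 changed sign. miR-142-3p in EPD against Control was 0.061 with upper-quartile scaling, 0.13 without the filter, 0.056 with only the 2 groups compared and 0.010 with the replicate block (-0.26 to 0.36 without single libraries). miR-142-5p in LPD against Control was 0.36 with upper-quartile scaling, 0.049 with DESeq2 and 0.061 with counts in all 9 libraries (-0.41 to 0.10 without single libraries), and miR-181a-5p ran from -0.089 to 0.50. In LPD against EPD miR-150-5p was 0.16 with upper-quartile scaling, and miR-181b-5p 0.11 with library totals, 0.46 with upper-quartile scaling, 0.30 with DESeq2, 0.020 without the filter and 0.23 with only the 2 groups compared (-0.66 to 0.70 without single libraries). The log2 ratio of miR-342-5p to miR-342-3p with a prior of 5 counts was -0.029 in EPD against Control (-0.17 to 0.70 without single libraries), 1.91 in LPD against Control and 1.94 in LPD against EPD. The cause of these changes was not tested. The prior sets a ratio with 0 counts, as those of miR-342-5p in LPD. In Control and EPD its counts were low but above 0, from 5 in Control 2 to 20 in EPD 1.

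With the replicate number as a replicate block, 101 miRNAs were called in LPD against Control and 101 in LPD against EPD, and miR-342-3p stood at -0.87 and -1.01. The block changed no call of a member. Whether the numbers pair the libraries was not settled. Correlations of same-numbered libraries ran from -0.10 to 0.08 in 9 pairs, and 5 of 9 libraries correlated best with their own number. These were correlations of deviations from means of 3 libraries, which have little power to show pairing.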
